A study of Arabidopsis thaliana with 15 samples.

Results

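The DNA methylation machinery of Arabidopsis thaliana was followed as 35 genes, out of the 37336 genes counted, in leaves that lack DNA demethylases. The 35 loci were chosen by what their products do, although earlier results of these data were known when the list was made. They encode DNA methyltransferases, the histone methyltransferases and methyl-DNA readers that work with them, and the factors of RNA-directed DNA methylation. All 35 locus identifiers were present in every count file, and 30 of the genes had enough counts to be tested, against 18598 of all genes.

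Polyadenylated RNA of the fifth rosette leaf at day 21 was sequenced in 15 libraries from plants grown in long days. The genotypes differ in 4 DNA glycosylase genes, DME, ROS1, DML2 and DML3, whose products cut methylated cytosine out of DNA. WT (4 libraries) are segregants with all 4 genes intact, dme (4 libraries) carries dme-2, rdd (4 libraries) carries ros1-3, dml2-1 and dml3-1, and drdd (3 libraries, lettered B to D) carries dme-2, ros1-3, dml2-1 and dml3-1. All genotypes, WT included, also carry the transgene pAGL61::DME, in which the AGL61 promoter drives DME; this promoter is known from the central cell of the ovule, and whether it is active in these leaves was not tested. Whether the libraries of a genotype are separate plants is not stated in the labels, and the tests below therefore rest on library-to-library spread, part of which may be technical. Library values are listed in letter order, A to D, or B to D for drdd. In whole leaves, fewer cells of a type and less RNA per cell cannot be told apart.

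In plants, methylation in the CG context is copied after replication by MET1, methylation in CHG (H is any base but G) is kept by a loop between CMT3 and methylated histone H3, and CHH methylation is placed by CMT2 and by DRM2. DRM2 is guided by RNA: Pol IV transcripts are made double-stranded and cut into small interfering RNAs (siRNAs), which Argonaute proteins carry to Pol V transcripts at the target. The demethylases oppose these enzymes, and transcription of ROS1 itself is known to depend on methylation near its promoter, so that the opposing activities are tied together in leaves.

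By estimate, transcript levels of the tested members differed from WT by less than 2-fold in each mutant. No tested member was called in dme, rdd or drdd against WT, in drdd against rdd, or in the interaction. The interaction asks whether loss of DME acts differently in plants that already lack ROS1, DML2 and DML3. A gene that was not called may still have changed. The 1 called difference was AGO6, a siRNA-binding Argonaute, which was 2.396-fold higher in drdd than in dme (95% interval 1.51-fold to 3.79-fold), and it sat close to the threshold. SUVH9, a methyl-DNA reader that recruits Pol V, was lower in all 3 drdd libraries than in any WT library, but this passed the threshold only in some analyses. A gene counts as called when its p from edgeR's quasi-likelihood test, adjusted by Benjamini-Hochberg over 18598 genes, is under 0.05. Over those genes the share called was 0.0108% in dme, 1.08% in rdd and 1.35% in drdd against WT, 0.468% in drdd against rdd, 2.26% in drdd against dme and 0.108% for the interaction. At the rdd and drdd shares, a count of 0 among 30 genes is near the background and is not a result about the machinery. The count of 1 in drdd against dme, AGO6, is likewise near the background share of 2.26%.

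Beside these counts of 0, an unadjusted p under 0.05 was reached by 0 members in dme, by AGO4 and AGO6 (both higher) in rdd, by AGO6 (higher) and SUVH9 (lower) in drdd, by CLSY1 and SUVH9 (both lower) in drdd against rdd, and by DDM1 in the interaction. Over all tested genes, 4.52%, 16%, 14.2%, 11.3% and 9.61% reached it in the same order. DESeq2 on the same 15 libraries called 0 of 31 to 33 members with an adjusted p in these contrasts. Its own shares over all genes were 0.046% in dme, 2.97% in rdd and 3.1% in drdd against WT, 1.78% in drdd against rdd and 0.983% for the interaction, so these counts too are near the background. In drdd against dme, AGO6 (higher) and SUVH9 (lower) reached an unadjusted p under 0.05 in edgeR, beside 15.9% of all tested genes. For 0 members the dme and WT libraries failed to overlap, as they did for 2.17% of all tested genes. The sizes themselves were small: the median absolute log2 fold change of the 30 members against WT was 0.08 in dme, 0.18 in rdd and 0.14 in drdd, beside 0.13, 0.21 and 0.19 over all tested genes. The 95% interval of the fold change lay wholly within 2-fold for 28 of 30 members in dme, 27 in rdd and 25 in drdd. The same count was not made over all tested genes, so these numbers are not a result about the machinery.

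**Figure D1:**
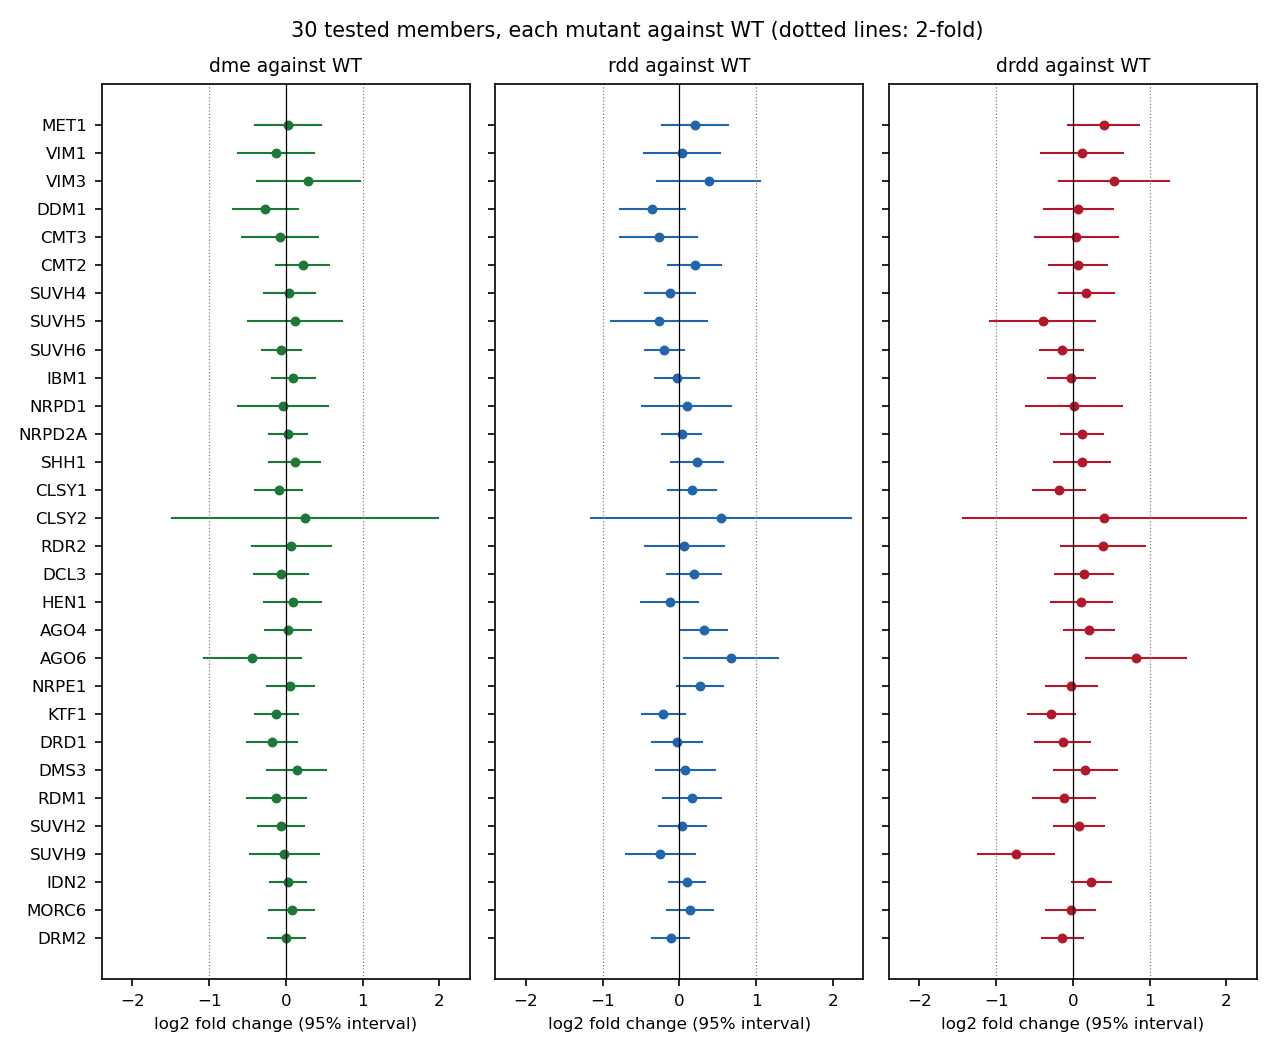
Log2 fold change of the 30 tested members in dme, rdd and drdd against WT (x axis) with 95% intervals as horizontal lines and 2-fold differences as dotted lines. Most points sit near 0; AGO6 is furthest right (0.82) and SUVH9 furthest left (-0.75) in drdd, and CLSY2, with few counts, has the widest interval.

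Libraries held 8730340 to 23302135 counts in genes, with a median of 12178873. Levels are given as CPM, the counts of a gene scaled to a common library size, and levels of different genes are compared only as CPM per kb of annotated exon. Leaf markers were high, with RBCS1A, the small subunit of Rubisco, at 16923 CPM or more in every library. By contrast, 0 of 8 markers of the shoot meristem and floral organs had enough counts to be tested. Among these 8, however, PI stood far higher in library rdd D than in any other library, as described below. Of the mutated genes, DML2 fell against WT, by estimates of -1.94 in rdd (log2 scale, SE 0.21, adjusted p = 0.000141) and -1.54 in drdd (SE 0.22, adjusted p = 0.00221). DME, ROS1 and DML3 transcripts were still counted in the mutants and were not called against WT in the edgeR fit. In the authors' deposited tables DML3 was called lower against WT in rdd (log2 fold change -1.02, adjusted p = 0.0147) and in drdd (-1.04, adjusted p = 0.0308), and ROS1 in rdd (-0.48, adjusted p = 0.0185).

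Per kb of exon in WT, SUVH9 was the highest member at 13.7 ± 1.13 CPM per kb (SD, n = 4), followed by KTF1 at 11.4 ± 1.99, IDN2 at 10.5 ± 0.285, MET1 at 10.3 ± 1.70, AGO4 at 9.20 ± 0.758 and SUVH6 at 8.83 ± 0.724. Neighbours in that order mostly did not differ beyond their spread: the WT ranges of SUVH9 (12.1 to 14.7 CPM per kb) and KTF1 (9.50 to 14.03) overlapped, as did those of KTF1 and IDN2. At the other end of the tested members stood NRPD1 at 1.40 ± 0.258 CPM per kb, SUVH5 at 0.828 ± 0.131, AGO6 at 0.787 ± 0.295 and CLSY2 at 0.118 ± 0.0475. The WT ranges of AGO6 (0.389 to 1.095) and SUVH5 (0.668 to 0.971) overlapped too. Exon lengths come from RefSeq annotation of TAIR10.1, and the annotation used for counting is not known, so these per-length levels are approximate.

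**Figure D2:**
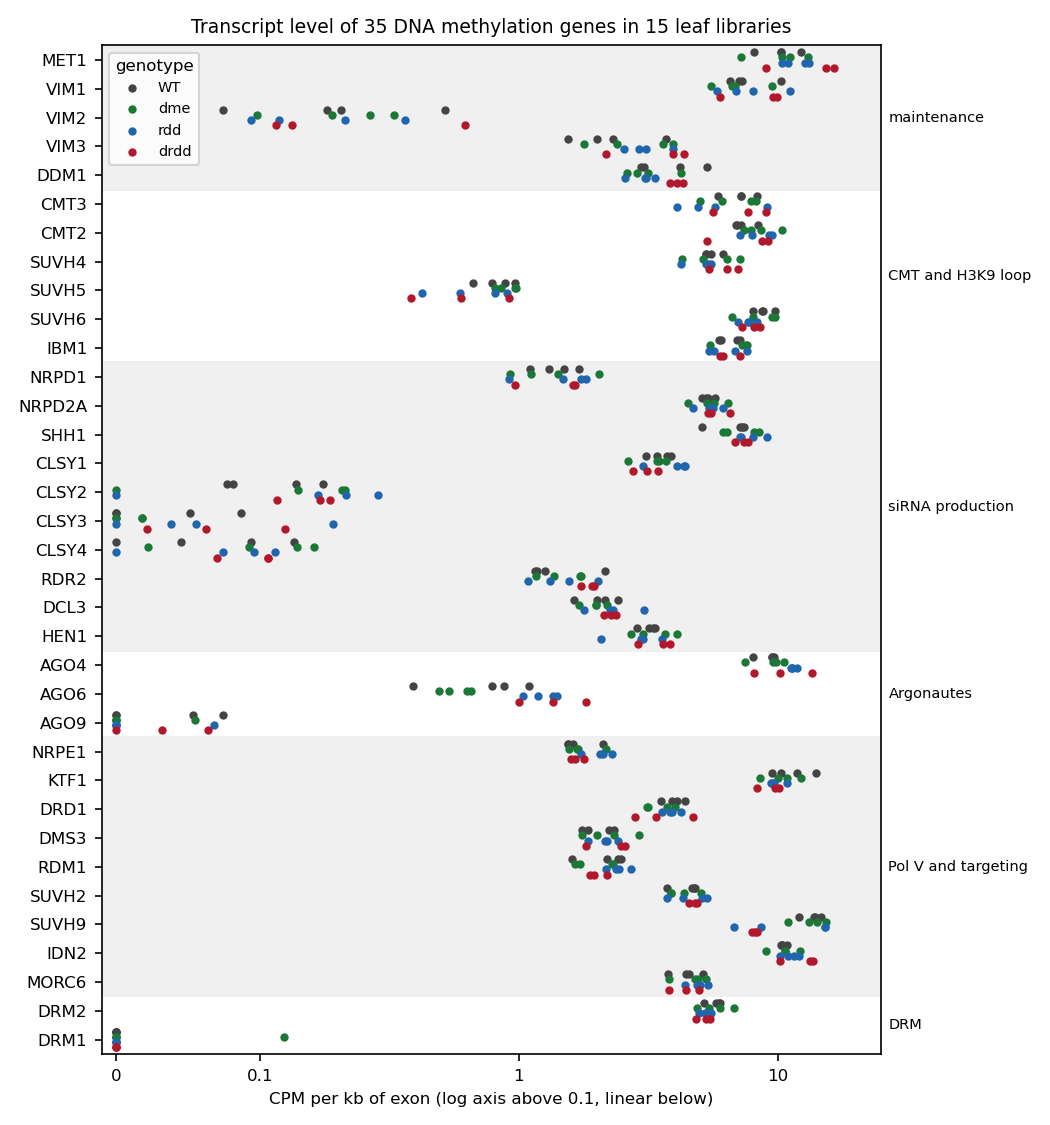
Level of all 35 members in each of the 15 libraries, as CPM per kb of exon on an axis that is linear below 0.1 and logarithmic above it, grouped by role, with 1 point per library coloured by genotype. Genotypes overlap for nearly every member; VIM2, CLSY2, CLSY3, CLSY4, AGO9 and DRM1 lie at or near 0.

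Maintenance of CG methylation was covered by MET1 (AT5G49160), the CG methyltransferase, by VIM1 (AT1G57820), VIM2 (AT1G66050) and VIM3 (AT5G39550), which bind hemimethylated CG sites and bring in MET1, and by DDM1 (AT5G66750), a chromatin remodeller that opens heterochromatin to methyltransferases. None of the 4 tested genes was called in any contrast. In drdd against WT all 4 estimates were above 0, with log2 fold changes of 0.40 (SE 0.22, adjusted p = 0.419) for MET1, 0.12 for VIM1, 0.53 (SE 0.33, adjusted p = 0.492) for VIM3 and 0.07 for DDM1. The median of the 4 was 0.26. The VIM3 estimate ran from 0.33 without drdd D to 0.85 without WT D, and that of MET1 from 0.24 without drdd D to 0.63 without drdd B.

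MET1 stood at 52.1, 52.3, 41.2 and 62.2 CPM (WT), 66.4, 52.6, 56.7 and 36.4 (dme), 52.6, 67.0, 64.8 and 55.6 (rdd) and 45.6, 77.7 and 83.3 (drdd). Libraries drdd C and D were the highest of all, and drdd B lay inside the WT range. VIM3 showed the same layout, with 3.49, 5.24, 4.55 and 8.40 CPM (WT), 8.90, 8.17, 5.42 and 4.04 (dme), 5.78, 7.005, 8.88 and 6.59 (rdd) and 4.93, 8.95 and 9.83 (drdd). Only 85.3% of VIM3's 50-base exon windows occur once in the genome, so some of its reads may have been assigned elsewhere or lost. DDM1 was at 8.19, 14.8, 8.43 and 11.6 CPM (WT), 11.7, 7.93, 8.72 and 7.25 (dme), 7.13, 9.30, 8.53 and 8.62 (rdd) and 10.7, 11.3 and 11.9 (drdd). Every drdd library was above every rdd library for DDM1, a separation seen for 12.1% of all tested genes in that contrast, and the difference was 0.43 on the log2 scale (adjusted p = 0.479). Its interaction estimate of 0.69 (SE 0.29, adjusted p = 0.470) was the largest among the members and was not called.

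The maintenance genes were set against the level of dividing-cell markers, 16 replication and mitosis genes such as PCNA1, MCM2 and CYCB1-1. After each genotype's mean was subtracted, the marker level across the 15 libraries had a Pearson correlation of 0.868 with VIM1 (Spearman 0.882), 0.839 with MET1 (0.900), 0.754 with CMT3 (0.779), 0.735 with VIM3 (0.750) and 0.699 with DDM1 (0.775). Exact two-sided permutation p-values over all 82944 orders within genotypes were 0.000374 for VIM1, 9.65e-05 for MET1, 0.00833 for CMT3, 0.00539 for VIM3 and 0.0115 for DDM1 by Pearson, and 0.000289, 2.41e-05, 0.00365, 0.00618 and 0.0055 by Spearman. Adjusted over the 18582 tested genes outside the marker list, the values by Pearson were 0.0956 for VIM1, 0.0949 for MET1 and 0.185 to 0.226 for the other 3. By Spearman they were 0.125 and 0.124 for VIM1 and MET1 and 0.184 to 0.220 for the rest. These relations fail the correction, as 0 of the 18582 genes passed. The smallest p these orders allow is 1.2e-05, at which a gene alone cannot pass over 18582 genes, so the failure is partly a limit of the test. Correlations as high as that of VIM1 were seen in 0.183% of all genes, and as high as that of MET1 in 0.387%. Without dme D and drdd B, whose marker deviations from the genotype mean were farthest from the median deviation, r was 0.835 for VIM1, 0.752 for MET1, 0.657 for CMT3, 0.588 for VIM3 and 0.679 for DDM1.

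MET1, CMT3 and DDM1 are known to be expressed most in dividing tissue, where newly made DNA has to be methylated. In the other direction stood NRPD1, the largest subunit of Pol IV, with r of -0.721 and Spearman of -0.646 (exact permutation p = 0.0140 and 0.0267, adjusted over all genes 0.237 and 0.323). All 30 tested members were set against the markers. The remaining 24 had r between -0.539 for SUVH6 and 0.578 for AGO4.

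The marker level itself was 3.33 ± 0.275 (mean log2 CPM ± SD, n = 4) in WT, 3.35 ± 0.308 in dme, 3.33 ± 0.312 in rdd and 3.68 ± 0.274 (n = 3) in drdd. Summed CPM of the 16 markers ran from 267.9 to 304.4 in WT, 205.2 to 377.3 in dme, 220.8 to 355.9 in rdd and 295.8 to 364.5 in drdd. All 16 markers had positive estimates in drdd against WT (median 0.29, from 0.05 to 0.83), and 0 of 16 was called. With the marker level added to the model as a covariate, an alternative chosen after seeing the data, the drdd estimates were 0.06 for MET1, -0.26 for VIM1, 0.11 for VIM3 and -0.13 for DDM1. Because the mean marker level was itself higher in drdd (3.68) than in WT (3.33), this covariate can take up differences between genotypes too. The part of dividing cells in the genotype estimates was therefore not tested.

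**Figure D3:**
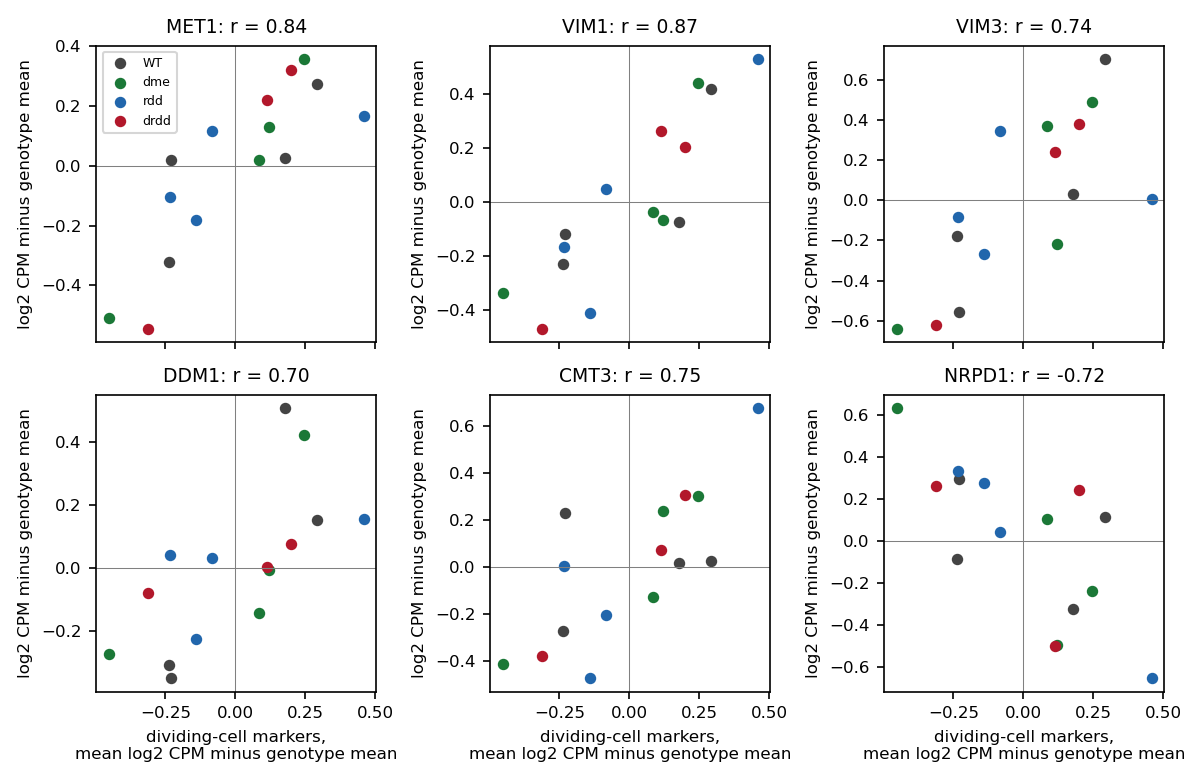
Deviation of MET1, VIM1, VIM3, DDM1, CMT3 and NRPD1 from their genotype means (y axis, log2 CPM) against the same deviation of the mean level of 16 dividing-cell markers (x axis, log2 CPM), 1 point per library coloured by genotype. The first 5 genes have positive r (0.70 to 0.87) and NRPD1 has negative r (-0.72).

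The CHG loop is made of CMT3 (AT1G69770), which methylates CHG sites on nucleosomes with methylated histone H3, and SUVH4 (AT5G13960), SUVH5 (AT2G35160) and SUVH6 (AT2G22740), which methylate that histone where DNA is methylated. CMT2 (AT4G19020) reads the same histone mark and methylates CHH sites in long transposons, and IBM1 (AT3G07610) removes the mark from genes. None of the 6 genes was called in any contrast, and their median log2 fold change was 0.07 in dme, -0.16 in rdd and 0.01 in drdd against WT.

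SUVH5 had the largest drdd estimate of the loop, at -0.39 on the log2 scale (SE 0.32, adjusted p = 0.612), but it was -0.73 without drdd C and -0.15 without drdd D. It was at 3.24, 2.62, 2.23 and 2.96 CPM (WT), 2.84, 3.27, 3.22 and 2.70 (dme), 2.71, 1.99, 1.41 and 3.02 (rdd) and 2.003, 3.05 and 1.28 (drdd). Its groups overlapped, drdd C lying within the WT range and drdd D being the lowest library of all. SUVH5 and ROS1 are on chromosome 2 with 184 loci between them, and any part of sequence linked to ros1-3 was not tested.

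IBM1 is a usual indicator of lost methylation in Arabidopsis, since methylation in a long intron is known to be needed for its full-length transcript. An unchanged level of IBM1 therefore says little about added methylation. Its mean level was 30.4 ± 2.90 CPM (WT), 32.5 ± 4.74 (dme) and 29.8 ± 4.70 (rdd; SD, n = 4 each), and the 3 drdd libraries had 28.8, 27.9 and 33.3 CPM, inside the range of the other genotypes. The difference between drdd and WT was -0.02 on the log2 scale, with a 95% interval from 0.797-fold to 1.22-fold. Counts per gene do not separate the long from the short transcript. ASI1 and EDM2, which promote the full-length IBM1 transcript, had drdd estimates of -0.10 and 0.12 and were not called. CMT2 was at 31.9 ± 2.90 CPM in WT and 33.4 ± 9.06 in drdd, CMT3 at 22.0 ± 3.07 and 22.8 ± 5.25, SUVH4 at 14.2 ± 1.04 and 16.1 ± 2.08, and SUVH6 at 23.6 ± 1.93 and 21.3 ± 1.70.

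Making of siRNAs begins with Pol IV, of which NRPD1 (AT1G63020) is the largest subunit and NRPD2A (AT3G23780) the subunit shared with Pol V. SHH1 (AT1G15215) and the CLSY remodellers bring Pol IV to its sites, RDR2 (AT4G11130) makes its transcripts double-stranded, DCL3 (AT3G43920) cuts them, and HEN1 (AT4G20910) methylates the ends of the small RNAs. None of the 8 tested genes was called, and the median log2 fold change against WT was 0.05 in dme, 0.13 in rdd and 0.12 in drdd.

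NRPD1 was at 7.55 ± 1.39 CPM in WT and 7.61 ± 2.08 in drdd, NRPD2A at 22.3 ± 1.03 and 24.2 ± 2.64, SHH1 at 8.13 ± 1.32 and 8.83 ± 0.511, DCL3 at 10.3 ± 1.63 and 11.4 ± 0.608, and HEN1 at 11.0 ± 0.783 and 11.9 ± 1.70. RDR2 was at 4.38, 7.98, 4.30 and 4.69 CPM (WT), 6.42, 5.07, 4.32 and 6.49 (dme), 7.49, 4.91, 5.80 and 4.05 (rdd) and 7.14, 6.49 and 7.27 (drdd). For RDR2 the lowest drdd library and the highest dme library were nearly equal at 6.49 CPM, and the groups did not overlap by strict order, as was so for 14.4% of all tested genes in that contrast. The RDR2 difference between drdd and dme, 0.32 on the log2 scale, was not called (adjusted p = 0.570).

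The 4 CLSY genes direct Pol IV in different tissues, and in these WT leaves CLSY1 (AT3G42670) had the highest level per kb of exon, 3.54 CPM per kb, against 0.118 for CLSY2 (AT5G20420), 0.0685 for CLSY4 (AT3G24340) and 0.0346 for CLSY3 (AT1G05490). CLSY1 averaged 14.6 ± 1.46 CPM (WT), 13.7 ± 1.91 (dme), 16.4 ± 2.67 (rdd) and 12.8 ± 1.41 (drdd), and the difference between drdd and rdd was -0.35 on the log2 scale (SE 0.16, adjusted p = 0.420). CLSY2 reached only 0.324, 0.342, 0.579 and 0.741 CPM (WT), 0.875, 0.899, 0.593 and 0 (dme), 0.903, 0, 0.703 and 1.21 (rdd) and 0.719, 0.492 and 0.786 (drdd). With 0 to 28 counts a library its drdd estimate of 0.41 had a standard error of 0.86 (adjusted p = 0.877), and its interval allowed changes from 0.370-fold to 4.76-fold.

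CLSY3 and CLSY4 had too few counts to be tested. CLSY3, known from reproductive tissue, had 47 counts in all 15 libraries together, 21 of them in rdd D and 0 in each of 5 libraries. CLSY4 had 54 counts, between 0 and 7 a library. Library rdd D was the deepest and also held PI, a floral organ identity gene, at 16.0 CPM, against at most 0.567 CPM in any other library, while AP1 was at 0 in it and AP3 at 0.0431 CPM. Whether the CLSY3 counts in rdd D go with the floral gene was not tested.

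Argonautes load the siRNAs: AGO4 (AT2G27040) and AGO6 (AT2G32940) act in vegetative tissue, and AGO9 (AT5G21150) is known from ovules. Of the 6 roles, this one had the role medians furthest from 0 in rdd (0.49) and in drdd (0.52) against WT, over only 2 tested genes, and its median in dme was -0.20.

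AGO6 stood at 1.22, 3.42, 2.73 and 2.47 CPM (WT), 1.53, 1.96, 2.03 and 1.69 (dme), 4.24, 3.24, 4.40 and 3.71 (rdd) and 3.13, 5.70 and 4.23 (drdd). All rdd and drdd libraries were above all dme libraries, and WT spread across both, with WT A lowest of all and WT B inside the range of rdd and drdd. The contrast of rdd against dme was not tested, and its share of separated genes was not computed. AGO6 rose in drdd relative to dme by 1.26 on the log2 scale (SE 0.31, adjusted p = 0.0484). The groups did not overlap, which held for 14.4% of all tested genes in this contrast. Against WT, AGO6 had estimates of -0.44 in dme (SE 0.30, adjusted p = 0.974), 0.67 in rdd (SE 0.29, adjusted p = 0.275) and 0.82 in drdd (SE 0.31, adjusted p = 0.240), none of them called. The drdd and rdd values differed by 0.15 (adjusted p = 0.907), and the interaction was 0.59 (adjusted p = 0.705).

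The AGO6 call was fragile. It rested on 15 to 86 counts a library and was kept with other size factors (adjusted p = 0.0484), with DESeq2 (0.00769, where 4.83% of all genes were called) and without WT A (0.0200) or WT B (0.0493). Leaving out any other library ended it, with adjusted p between 0.0567 without rdd B and 0.260 without drdd C, where the estimate was 1.0068. It was also lost when only the drdd and dme libraries were fitted (0.109, with 0.741% of all genes called). AGO6 and ROS1 lie on the same chromosome with 478 loci between them, and of the 10 tested genes nearest to AGO6, 0 was called in any contrast, a count near the background.

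AGO4, the main Argonaute of the pathway, was at 26.3, 30.9, 31.1 and 31.5 CPM (WT), 31.2, 32.0, 34.5 and 24.4 (dme), 36.8, 36.8, 38.6 and 36.8 (rdd) and 26.5, 44.2 and 33.3 (drdd). Every rdd library lay above every WT library, a separation found for 10.3% of all tested genes. The difference was 0.32 on the log2 scale (SE 0.14, adjusted p = 0.288), or 1.24-fold with a 95% interval from 1.012-fold to 1.53-fold. In the authors' deposited table of rdd against WT it was 0.31 with an adjusted p of 0.0692. In drdd the estimate of 0.21 (adjusted p = 0.561) rested on drdd C and was -0.00 without it. AGO9 had 11 counts in all, 0 in 9 libraries, and at most 0.228 CPM.

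Pol V and its partners make the scaffold transcripts at which siRNAs find their targets. NRPE1 (AT2G40030) is the largest Pol V subunit, DRD1 (AT2G16390), DMS3 (AT3G49250) and RDM1 (AT3G22680) form the complex that engages Pol V with DNA, KTF1 (AT5G04290) is an elongation factor that binds Argonautes, and IDN2 (AT3G48670) binds RNA duplexes. SUVH2 (AT2G33290) and SUVH9 (AT4G13460) bind methylated DNA and recruit Pol V but do not methylate histones, and MORC6 (AT1G19100) is an ATPase that compacts silenced chromatin. None of the 9 genes was called in any contrast, and their median log2 fold change was -0.02 in dme, 0.08 in rdd and -0.03 in drdd against WT.

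SUVH9 was at 34.2, 39.2, 41.7 and 39.6 CPM (WT), 37.3, 40.2, 31.2 and 43.6 (dme), 24.5, 19.2, 43.2 and 43.1 (rdd) and 23.1, 22.6 and 23.5 (drdd). The 3 drdd libraries lay within 1 CPM of each other and below every WT and dme library. The rdd libraries split, with rdd A and B near drdd and rdd C and D near WT. A gap of this kind was found for 13.1% of all tested genes between drdd and WT, and for 14.4% between drdd and dme.

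SUVH9 was lower in drdd than in WT by an estimate of -0.75 on the log2 scale (SE 0.23), which is 0.596-fold (95% interval 0.423-fold to 0.841-fold), with an adjusted p of 0.162. Against dme the drdd estimate was -0.72 (SE 0.23, adjusted p = 0.132), against rdd -0.50 (SE 0.23, adjusted p = 0.435), and rdd against WT gave -0.25 (SE 0.21, adjusted p = 0.567). Since the 4 genotypes share 1 estimate of the spread, the split within rdd enters the test of drdd against WT. With WT and drdd libraries alone the estimate was -0.74 with an adjusted p of 0.0233 (0.617% of all genes were called in that fit), and DESeq2 on all libraries gave 0.0590. In the authors' deposited table of drdd against WT, SUVH9 had a log2 fold change of -0.75 and an adjusted p of 8.56e-06, and it was the only one of 33 members with an adjusted p there to pass 0.05 (3.38% of all genes did). The authors' deposited tables of the other 3 contrasts called 0 members, beside 0.0509% of all genes in dme and 4.7% in rdd against WT and 3.12% in drdd against rdd, so these counts of 0 are near the background.

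A noncoding locus near SUVH9 fell in rdd and in drdd. AT4G13495, 6 loci away and singled out after its values were seen, was at 592, 511, 684 and 571 CPM (WT), 492, 744, 586 and 633 (dme), 251, 291, 206 and 195 (rdd) and 67.9, 82.2 and 104 (drdd). The genotypes without ROS1, DML2 and DML3 were below WT and dme in every library, and drdd was below rdd in every library. Over all tested genes, libraries failed to overlap for 10.3% in rdd and 13.1% in drdd against WT. The shares were 12.1% in drdd against rdd and 14.4% in drdd against dme, and rdd against dme was not tested. Against WT the estimate for AT4G13495 was -1.32 on the log2 scale in rdd (SE 0.17, adjusted p = 0.000816) and -2.80 in drdd (SE 0.20, adjusted p = 2.02e-06). Its interaction estimate was -1.54 (SE 0.25, adjusted p = 0.0257). It was the 1 called gene among the 10 tested genes nearest to SUVH9 in rdd and in drdd against WT. Its rdd values did not split as those of SUVH9 did, and whether the loci are connected was not tested.

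**Figure D4:**
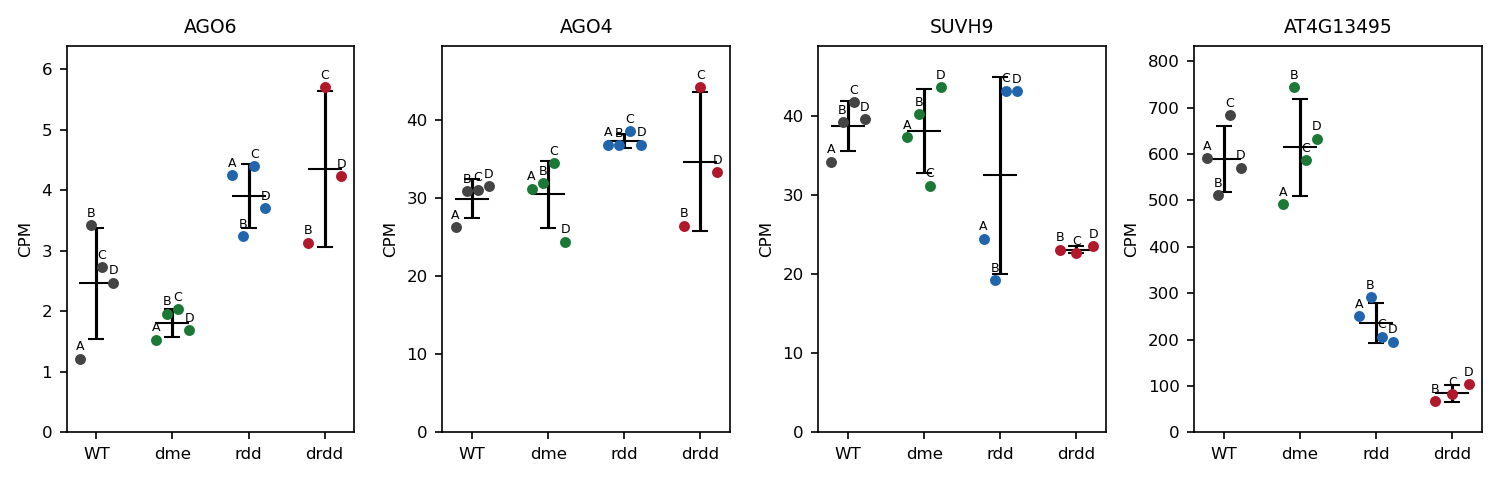
CPM of AGO6, AGO4, SUVH9 and the noncoding locus AT4G13495 in each library (points with replicate letters), with the genotype mean and SD (n = 4, drdd n = 3) as bars; each y axis starts at 0. AGO6 is higher in drdd than in dme, and its rdd points also lie above dme, a contrast that was not tested. SUVH9 is near 23 CPM in drdd and splits within rdd. AT4G13495 is lower in rdd and lowest in drdd.

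The other Pol V factors were not called in drdd against WT. NRPE1 was at 11.3 ± 1.81 CPM in WT and 11.1 ± 0.679 in drdd, DRD1 at 12.7 ± 1.15 and 11.6 ± 3.10, DMS3 at 8.39 ± 1.15 and 9.43 ± 1.73, RDM1 at 6.05 ± 1.11 and 5.58 ± 0.454, and MORC6 at 11.8 ± 1.47 and 11.6 ± 1.58. SUVH2, the close relative of SUVH9, was at 11.2 ± 1.26 CPM in WT and 11.8 ± 0.441 in drdd, with a log2 fold change of 0.08 (adjusted p = 0.857). KTF1 was at 55.6 ± 9.66 CPM in WT and 45.7 ± 4.51 in drdd (log2 fold change -0.28, SE 0.14, adjusted p = 0.392). Its level was 50.9 ± 7.63 CPM in dme and 48.2 ± 3.33 in rdd. KTF1 is separated from DME by 33 loci, and any part of sequence linked to dme-2 was not tested. IDN2 was at 26.4 ± 0.717 and 31.2 ± 4.74 CPM (0.24, adjusted p = 0.377).

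De novo methylation itself is carried out by DRM2 (AT5G14620), the enzyme at the end of the RNA-directed pathway. DRM2 was among the steadiest members, at 12.2, 13.5, 13.8 and 13.998 CPM (WT), 11.4, 15.8, 12.6 and 13.9 (dme), 12.2, 12.5, 11.6 and 12.9 (rdd) and 12.8, 12.3 and 11.3 (drdd). All genotypes overlapped, and the drdd difference of -0.14 on the log2 scale (SE 0.12, adjusted p = 0.654) had a 95% interval from 0.758-fold to 1.09-fold. Its relative DRM1 (AT5G15380), known from reproductive cells, had 3 counts in dme B and 0 in the other 14 libraries. A count of 0 allows up to 0.129 to 0.342 CPM, depending on the library and for counting error only. VIM2, the last of the 5 members without a test, had 2 to 14 counts a library, and only 32.8% of its 50-base exon windows occur once in the genome, so its counts may miss most of its reads.

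**Figure D5:**
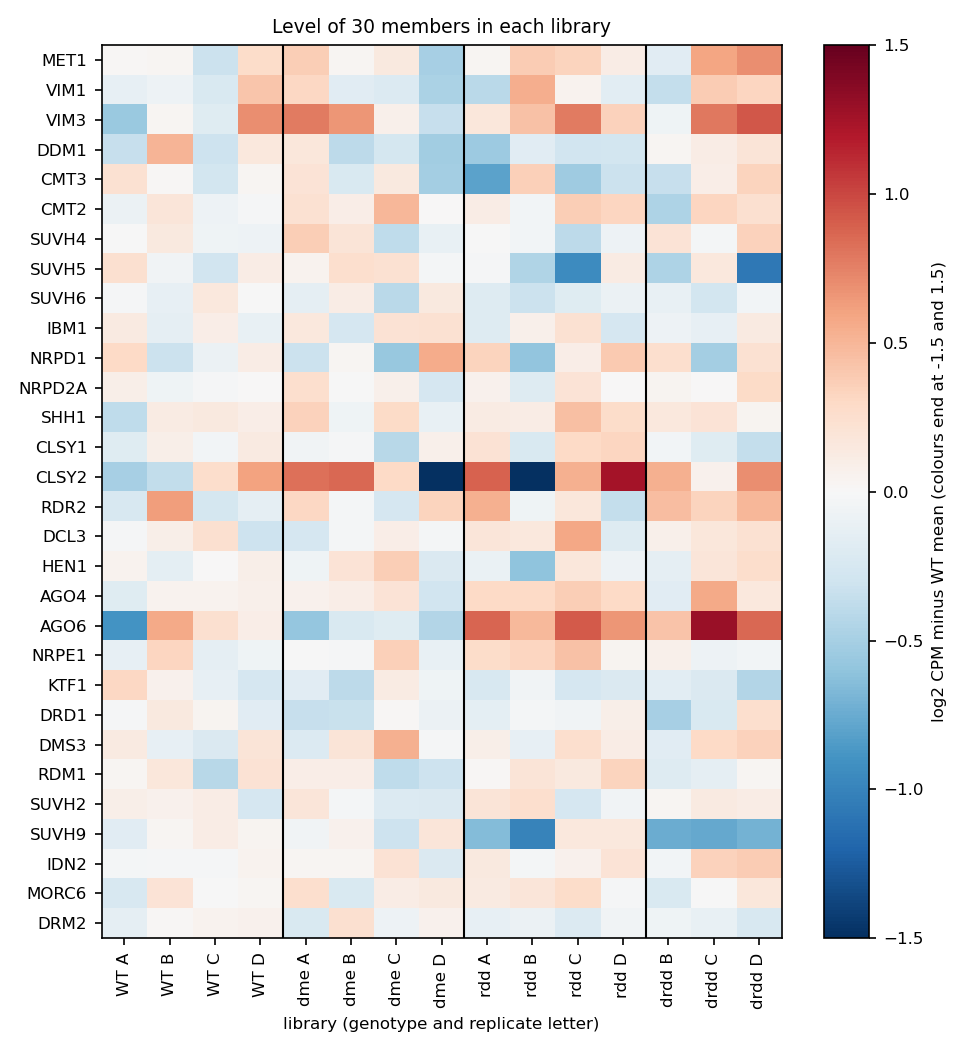
Level of the 30 tested members (y axis) in each library (x axis), as log2 CPM minus the WT mean; colours end at -1.5 and 1.5, which only CLSY2 reaches. AGO6 lies above the WT mean in rdd and drdd, but WT B is inside their range and neither genotype was called against WT. SUVH9 stands out as lower in drdd, rdd A and rdd B, and was not called in the edgeR fit of all libraries.

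Further genes of these pathways were counted in the same way. Of 53 other genes, among them remaining methyltransferases, Pol IV and Pol V subunits, the FDM, MORC and SUVR proteins, histone demethylases and the Argonautes and Dicers of other small RNA pathways, 45 had enough counts and 0 was called in any of the 6 contrasts. With 0.0108% to 2.26% of all tested genes called, these counts of 0 are near the background. An unadjusted p under 0.05 was reached by 2 of 45 in dme, 5 in rdd and 4 in drdd against WT. It was reached by 5 in drdd against rdd, 2 in drdd against dme and 2 for the interaction. Over all tested genes the shares were 4.52%, 16%, 14.2%, 11.3%, 15.9% and 9.61% in the same order. The counts were near or below these shares, furthest below in drdd against dme, and are not read as a result about these genes. The lowest p in rdd against WT was that of RDM4, a factor shared by RNA polymerases, at -0.50 (adjusted p = 0.151), and in drdd against WT that of MORC2, an ATPase related to MORC6, at -0.75 (adjusted p = 0.203). AGO3 had a drdd estimate of 1.39 (adjusted p = 0.266), and AGO1, the Argonaute of microRNAs, was at 93.9 ± 6.84 CPM in WT and 96.3 ± 7.12 in drdd.

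Among 3 genes known to be silenced by DNA methylation, only QQS, which affects starch content, had enough counts to be tested. It was called lower in rdd and in drdd against WT. QQS was at 21.4, 3.19, 11.4 and 2.06 CPM (WT), 2.63, 6.21, 5.17 and 9.94 (dme), 0.451, 1.36, 1.32 and 0.905 (rdd) and 0.0513, 0.0983 and 0 (drdd). All rdd libraries were below all WT and dme libraries, and all drdd libraries below all rdd libraries. In either direction, rdd and WT libraries did not overlap for 10.3% of all tested genes, and drdd and rdd libraries for 12.1%. For rdd and dme libraries that share was not computed. Against WT the QQS estimate was -3.25 on the log2 scale in rdd (SE 0.69, adjusted p = 0.0383) and -7.32 in drdd (SE 1.13, adjusted p = 0.00452). At these near-zero drdd counts the fitted fold depends on the prior count. The difference between drdd and rdd was not called in the edgeR fit (adjusted p = 0.213). In the authors' deposited DESeq2 table of drdd against rdd, QQS was called lower (log2 fold change -4.33, adjusted p = 0.0231), beside 3.12% of all genes. FWA was at 0 in every library and SDC at 0 to 0.486 CPM, so neither could show a further fall.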

How the data were processed

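Polyadenylated RNA of rosette leaves was measured in 15 libraries of 4 genotypes, which were taken from the labels. The authors deposited 1 file of whole-number read counts for every library. The submitters' processing notes name FastQC and Trim Galore, then STAR, HTSeq and DESeq2, without versions. The genome build, the annotation and whether strand was used in counting were not given in the sources used here, so overlapping and antisense genes cannot be told apart. The deposited files count 37336 genes; 5 summary lines that name no gene were left out of library sizes, of which reads in no gene made up 1.54% to 2.17% and reads in several genes 0.117% to 0.176%. The authors also deposited DESeq2 tables which, per the file headers, hold a mean signal (size-factor scaled counts), a log2 fold change, a score (the test statistic), and a p-value before and after adjustment.

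Counts were analysed with edgeR 4.0.16 in R 4.3.3: filterByExpr (minimum count 10), TMM scaling (factors 0.953 to 1.09), and 1 robust quasi-likelihood model over all 15 libraries (common biological coefficient of variation 0.266). Adjusted p-values are Benjamini-Hochberg values over 18598 genes. The interaction is drdd minus rdd minus dme plus WT. The members and gene lists were chosen with earlier results of these data known. Library values are given for members called here or in a deposited table, for the member of each role with the largest drdd difference from WT, and for others described in detail. Up to 4 called genes of each other list were named by rule, which added DML3 (drdd against dme, log2 fold change -1.16, adjusted p = 0.0470), RCA (-0.91, adjusted p = 0.0448) and LHB1B2 (1.24, adjusted p = 0.0353), both leaf genes. Of 95 list genes, 88 had a name in the RefSeq table of TAIR10.1 and 70 of these were tested; it matched 37051 of the 37336 identifiers. Exon lengths and uniqueness of 50-base windows were computed from RefSeq TAIR10.1. Some RefSeq symbols differ (CHR1 for DDM1, NRPD1A for NRPD1, NRPD1B for NRPE1). Replicates of a genotype differed by more than sampling noise in all 21 pairs. On simulated counts the test recovered 60% to 62% of 2-fold rises and 45.8% to 71.4% of 2-fold falls in the 3 contrasts against WT. Alternatives were DESeq2 1.42.0, its size factors, no filter, only the libraries compared, a replicate block, each library left out, and the marker covariate.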

Additional observations from a re-analysis of the deposited data

Results flagged for a closer look

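Among 105 sets of 4 libraries of a genotype (30 tested members, the 4 demethylase genes and QQS in WT, dme and rdd), 9 held a library whose gap to the nearest of the others passed Dixon's critical value. Chance marks about 1 in 20 sets, which is 5.25 of 105. In WT these were SHH1 in WT A (6.16 CPM, others 8.65 to 8.93), RDR2 in WT B (7.98, others 4.30 to 4.69), AGO4 in WT A (26.3, others 30.9 to 31.5), NRPE1 in WT B (14.02, others 10.2 to 10.8), SUVH2 in WT D (9.30, others 11.6 to 12.0) and IDN2 in WT D (27.4, others 25.9 to 26.1). In dme it was IBM1 in dme B (25.5 CPM, others 33.9 to 35.4). In rdd these were AGO4 in rdd C (38.6 CPM, others 36.8) and KTF1 in rdd B (53.1, others 46.0 to 47.1).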

How the results depend on the processing

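Counts of called genes depended on the tool and on which libraries were fitted, and the cause was not tested. Over all genes, DESeq2 called 9 in dme, 625 in rdd and 636 in drdd against WT, 375 in drdd against rdd, 991 in drdd against dme and 183 for the interaction. With only the libraries compared, the numbers were 0 in dme (503 at an unadjusted p under 0.05), 111 in drdd against WT, 50 in drdd against rdd and 134 in drdd against dme. With the marker covariate, drdd against rdd had 153. The replicate letters did not pair the libraries: 21 pairs with a shared letter had correlations from -0.49 to 0.39, with 9 over 0.1, and 5 of 15 libraries correlated best with their own letter. With a replicate block there were 111 calls in rdd and 139 in drdd against WT, 50 in drdd against rdd, 225 in drdd against dme and 12 for the interaction. Leaving out each library in turn gave 2 to 3 calls in dme against WT, 93 to 327 in rdd, 105 to 318 in drdd, 19 to 126 between drdd and rdd, 126 to 494 between drdd and dme, and 6 to 45 for the interaction.

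Among the members, drdd against WT had 1 call (SUVH9) with only the libraries compared. In drdd against dme the 1 call, AGO6, became 0 without the count filter (adjusted p = 0.0605), with only the libraries compared, with the replicate block (0.119) and with the covariate (0.109), and 0 to 1 when each library was left out; the 1 was AGO6 without WT A or without WT B, and SUVH9 (adjusted p = 0.0425) without rdd B. All other counts of called members stayed at 0 under every alternative run. Other size factors moved no median by more than 0.01. Depth limits CLSY2 and the 5 untested members most. On simulated counts the test missed part of the 2-fold changes put in, so smaller changes in members of low count may go uncalled.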
